A study of Rattus norvegicus with 6 samples.

Results

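The genes described here are 10 receptors, adaptors and markers of microglia and macrophages, the phagocytes of the brain and other tissues, measured in cultures of rat oligodendrocyte precursor cells. They were chosen by symbol (Tyrobp, Trem2, Fcer1g, Cd14, Tlr2, Tlr4, Csf1r, Aif1, Spi1 and Cd68), and each of the 10 had exactly 1 row among the 32662 genes of the deposited table. The 3 control and 3 fibril libraries came from the cerebral cortex of Sprague-Dawley rats aged 1 to 2 days. Both groups were grown first as mixed glia in medium with 20% serum, from which the cells that did not adhere were taken, and then for 4 to 5 days with PDGF and FGF at 10 ng/ml each and 2% B27. The fibril group also received fibrils assembled from human alpha-synuclein, the protein deposited in oligodendrocytes in multiple system atrophy, and the incubation lasted 72 hours. A mixed glial culture contains microglia, and the labels do not say what share of the collected cells they made up. Nothing in the labels says whether libraries of a group came from separate animals or cultures, so the p-values describe the spread between these libraries, which may be technical.

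Microglia carry receptors that sense lipids, proteins and microbial products. Tyrobp and Fcer1g are small membrane adaptors that lend an activation motif to receptors lacking one, Trem2 and the Fc receptors among them. Cd14 presents ligands to Toll-like receptors, of which Tlr4 is best known for bacterial lipopolysaccharide and Tlr2 for lipoproteins. Csf1r is the growth factor receptor on which microglia depend for survival, and Spi1 encodes PU.1, the transcription factor that sets the myeloid programme. Aif1 encodes the calcium-binding protein IBA1 and Cd68 a lysosomal membrane protein, and both are used to stain microglia and macrophages.

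RefSeq promoters (build GRCr8) were found for 6 of the 10 genes, namely Cd14, Cd68, Csf1r, Tlr2, Tlr4 and Trem2. The 250 bases before the start of 3 pattern-recognition receptor genes are shown, because Cd14 and Tlr2 had their highest values with fibrils while Tlr4 did not. They lie at chr18:28611159-28611408, minus strand (Cd14), chr2:171504558-171504807, minus strand (Tlr2) and chr5:85160997-85161246, plus strand (Tlr4). Capitals mark GAGGAA, the core bound by PU.1, or its reverse complement TTCCTC, and the kappa-B consensus, both searched on either strand.
Cd14: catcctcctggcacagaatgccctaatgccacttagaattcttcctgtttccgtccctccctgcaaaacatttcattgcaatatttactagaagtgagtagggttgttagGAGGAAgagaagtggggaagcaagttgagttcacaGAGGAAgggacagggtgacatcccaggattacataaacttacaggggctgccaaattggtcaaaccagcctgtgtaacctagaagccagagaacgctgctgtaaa
Tlr2: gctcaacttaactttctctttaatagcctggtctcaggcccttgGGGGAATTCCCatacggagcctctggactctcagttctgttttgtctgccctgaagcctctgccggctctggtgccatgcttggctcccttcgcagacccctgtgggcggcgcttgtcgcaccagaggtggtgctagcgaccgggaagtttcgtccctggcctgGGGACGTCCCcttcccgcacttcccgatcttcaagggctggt
Tlr4: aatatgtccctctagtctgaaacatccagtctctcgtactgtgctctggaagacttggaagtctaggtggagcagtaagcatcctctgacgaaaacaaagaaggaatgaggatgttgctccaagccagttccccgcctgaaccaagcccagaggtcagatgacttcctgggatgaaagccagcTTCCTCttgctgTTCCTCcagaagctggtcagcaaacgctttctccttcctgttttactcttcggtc
GAGGAA was present in 5 of the 6 promoters (Cd14, Cd68, Csf1r, Tlr4 and Trem2), against 23.3% of 33465 promoter windows of the same length. In Cd14 it began 140 and 105 bases before the start, and in Tlr4 its reverse complement began 67 and 55 bases before the start. The kappa-B consensus, which NF-kB factors bind, was present in 1 of the 6 (Tlr2), against 6.33% of all windows. Its matches in Tlr2 overlapped each other at 206 to 196 bases before the start, and another lay at 42 to 33 bases. These matches are descriptions of letters, not measured binding.

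The libraries differed in ways that bear on genes of such low level. Values are FPKM, fragments scaled to gene length and to the mapped total of the library, so they can be compared between genes. Between 11518 and 14219 genes were above 0 per library, and the share of the FPKM total taken by mitochondrial genes was 80.3% and 75.6% in replicate 1 of the control and fibril groups, and at most 40.1% elsewhere. With the worth of 1 fragment set to 1 in control replicate 2, it came to 4.03 in control replicate 1, 6.92 in fibril replicate 1 and between 0.818 and 1.96 in the remaining libraries. Low values in replicate 1 therefore rest on the fewest fragments. Hprt1 and Rps6, which every cell uses, were listed at 0 in all 6 libraries, so a 0 in this table can be a failed estimate.

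The adaptor genes had the widest range. Tyrobp (ENSRNOG00000020845) lies on chromosome 1 at 88875374 to 88879303 in the deposited table, whose build no source used here gives. It stood at 0, 4.48 and 0 FPKM in control replicates 1, 2 and 3. The fibril libraries of the same numbers had 1.93, 18.7 and 8.76 FPKM. The groups overlapped, since control replicate 2 lay above fibril replicate 1. Its log2 difference, on the log2(FPKM + 1) scale used for every fitted difference here, was 2.23 (SE 0.85), higher with fibrils within all 3 replicate numbers. It did not pass over all genes (limma adjusted p = 0.96, unadjusted p = 0.028; with the replicate number as a block, adjusted p = 0.155). Fcer1g (ENSRNOG00000024159, chromosome 13, 89601895 to 89606326) stood at 1.04, 15.5 and 0 FPKM without fibrils and at 1.82, 35.9 and 15.4 FPKM with them. Control replicate 2 and fibril replicate 3 were almost level for this adaptor of Fc receptors, and the difference of 1.89 (SE 1.16) did not pass (limma adjusted p = 0.96). It was 3.06 without control replicate 2, 2.93 without fibril replicate 1, and 1.04 and 1.08 without control replicate 3 and fibril replicate 2. Within replicate 2, where both genes had their highest values of each group, Tyrobp was 4.16 times and Fcer1g 2.32 times as high in the fibril library.

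Trem2, the lipid receptor that signals through Tyrobp, was above 0 in 3 libraries and below 1 FPKM in each of them. Trem2 (ENSRNOG00000013578, chromosome 9, 14611560 to 14618013) stood at 0, 0.801 and 0 FPKM without fibrils and at 0, 0.348 and 0.262 FPKM with them, so its highest value was in a control library. It was lower with fibrils in replicate 2 and higher in replicate 3, where Tyrobp was higher in both, and the difference between the genes was not tested. It was below the filter for testing (1 FPKM or more in at least 3 libraries). Relative to Tyrobp in the same library, Trem2 was at 0.179 in control replicate 2, 0.0186 in fibril replicate 2 and 0.0299 in fibril replicate 3.

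Cd14 was the 1 gene of the 10 whose groups did not overlap. Cd14 (ENSRNOG00000017819, chromosome 18, 29560364 to 29562153) stood at 0, 0.26 and 0.0708 FPKM without fibrils and at 2.39, 10.6 and 3.23 FPKM with them. All 3 fibril libraries lay above all 3 controls, as in 4.24% of the 10766 genes tested (5.3% had the reverse order, and 0 of the 10 did). Cd14 passed the filter through its fibril libraries alone, so this order and its positive sign were set by the filter. The share of all genes therefore gives no support to a difference. The difference was 2.32 (SE 0.51), with a limma adjusted p of 0.5 (unadjusted p = 0.00142) and of 0.138 with the block. With 3 libraries a side, the smallest p of an exact permutation test is 0.1.

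Among the Toll-like receptors, Tlr2 and Tlr4 had different patterns at low levels. Tlr2 (ENSRNOG00000009822, chromosome 2, 182840726 to 182846061) stood at 0, 0.329 and 0.0896 FPKM without fibrils and at 0, 2.36 and 0.646 FPKM with them, higher in the fibril library within replicates 2 and 3 and listed at 0 in both replicate 1 libraries. Tlr4 (ENSRNOG00000010522, chromosome 5, 82587419 to 82601052) stood at 0.342, 0.21 and 0 FPKM without fibrils and at 0, 0.164 and 0 FPKM with them, and was higher with fibrils within no replicate number. Neither reached the filter.

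The growth factor receptor and the lineage factor were also low, and both were higher with fibrils in replicate 3. Csf1r (ENSRNOG00000018414, chromosome 18, 56414487 to 56458300) stood at 0, 1.84 and 0.0358 FPKM without fibrils and at 0, 0.718 and 1.19 FPKM with them. Its level was 2.56 times as high in the control as in the fibril library of replicate 2, while in replicate 3 the fibril library was higher. Spi1 (ENSRNOG00000012172, chromosome 3, 79918968 to 79938301) stood at 0.295, 0.881 and 0.0599 FPKM without fibrils and at 0.509, 2.49 and 1.73 FPKM with them, higher with fibrils within each replicate number although the groups overlapped. Both genes were below the filter.

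The staining markers Aif1 and Cd68 were detected in most libraries. Aif1 (ENSRNOG00000000853, chromosome 20, 5161332 to 5166448) stood at 1.01, 4.4 and 0.222 FPKM without fibrils and at 0, 9.94 and 7.95 FPKM with them, with a difference of 0.96 (SE 0.92; limma adjusted p = 0.96). Fibril replicate 1 was its lowest library. If 1.01 FPKM in control replicate 1 was 1 fragment, 1 fragment of Aif1 in fibril replicate 1 was worth 1.73 FPKM. The 0 there does not separate Aif1 from that control level. Cd68 (ENSRNOG00000037563, chromosome 10, 56268719 to 56270640) stood at 6.31, 7.52 and 0.302 FPKM without fibrils and at 7.56, 14.3 and 5.56 FPKM with them, with a difference of 1.13 (SE 0.72; limma adjusted p = 0.96). For Cd68 only control replicate 3 lay far below the rest, and without that library the difference was 0.27 (SE 0.53). The Aif1 difference was 2.06 without fibril replicate 1, 1.56 without control replicate 2, and 0.49, 0.34 and 0.48 without control replicate 3, fibril replicate 2 and fibril replicate 3.

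**Figure D1:**
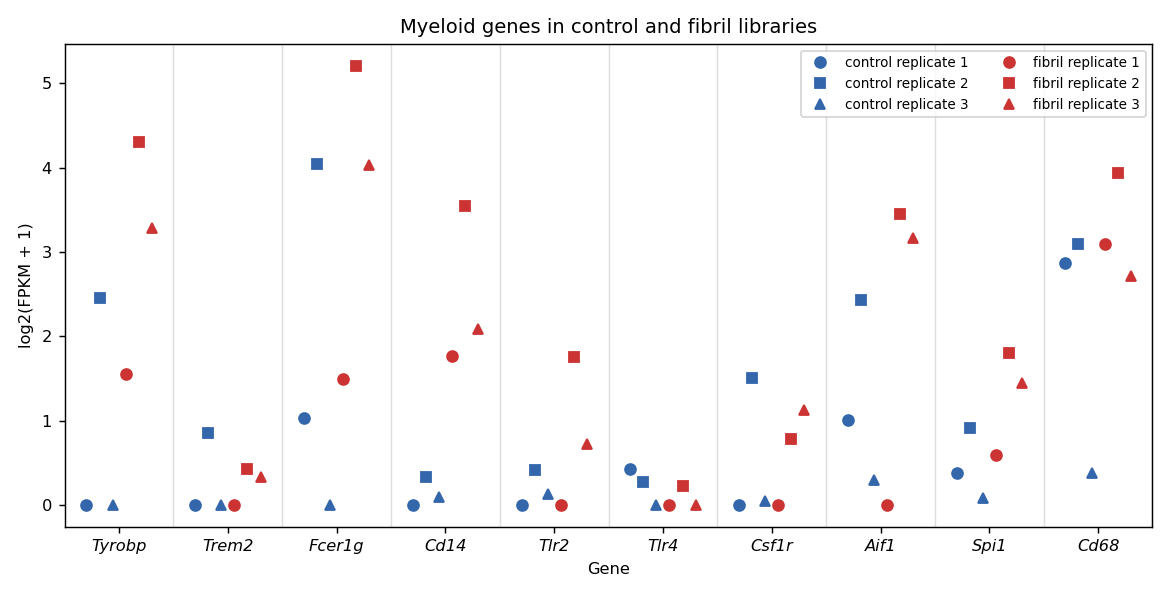
Levels of the 10 myeloid genes as log2(FPKM + 1), 1 point per library, with controls in blue, fibril libraries in red and a marker shape for each replicate number. Cd14 is the gene whose 3 fibril libraries (2.39 to 10.6 FPKM) all lie above its 3 controls (0 to 0.26 FPKM), and fibril replicate 2 is the highest library for 7 of the 10 genes.

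In sum, 5 of the 10 genes passed the filter (Tyrobp, Fcer1g, Cd14, Aif1 and Cd68). All 5 differences were positive with a median of 1.89, where all 10766 tested genes had a median of -0.04 and 47.0% positive. A gene can pass the filter through its fibril libraries alone, as Cd14 did. This count and median, and the counts of calls below, therefore describe the 5 genes and give no support to a difference. By limma 0 of the 5 passed an adjusted p of 0.05, as did 0% of all genes in either direction. At an unadjusted p under 0.05, 2 of the 5 (Tyrobp and Cd14) were higher with fibrils, against 2.21% of all genes, and 0 were lower, against 1.81%. The sign of Cd14 was set by the filter. With the block 0 of the 5 passed, against 0.111% of all genes that were higher and 0% lower.

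The fit of replicates 2 and 3 only, chosen because replicate 1 stands apart, gave other calls. With the block, 4 of the 5 passed (Tyrobp 2.57, Fcer1g 2.6, Cd14 2.59 and Aif1 1.95; limma adjusted p from 0.000332 to 0.0401), against 0.78% of all genes that were higher and 0.446% that were lower. That fit has 1 residual degree of freedom, and limma then gave all genes of a given level the same spread, so a gene's own scatter hardly enters its p. Without the block the same 4 libraries gave 0 calls among the 10 genes.

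Within replicate numbers, the libraries that carried most of the 10 genes showed where they parted. Libraries numbered 2 and 3 are not shown to be pairs, because their deviations from group means correlated more strongly across these numbers than within them. In replicate 2, 7 genes were higher with fibrils and 3 (Trem2, Tlr4 and Csf1r) were lower. In replicate 3, 9 were higher and Tlr4 was listed at 0 in both libraries. In replicate 1, 5 were higher, 2 were lower (Aif1 and Tlr4) and 3 were listed at 0 in both. Most of these replicate 1 directions rest on few fragments, as given below. Over all genes above 0 in either library, 50%, 46.7% and 47.2% were higher with fibrils in replicates 1, 2 and 3.

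**Figure D2:**
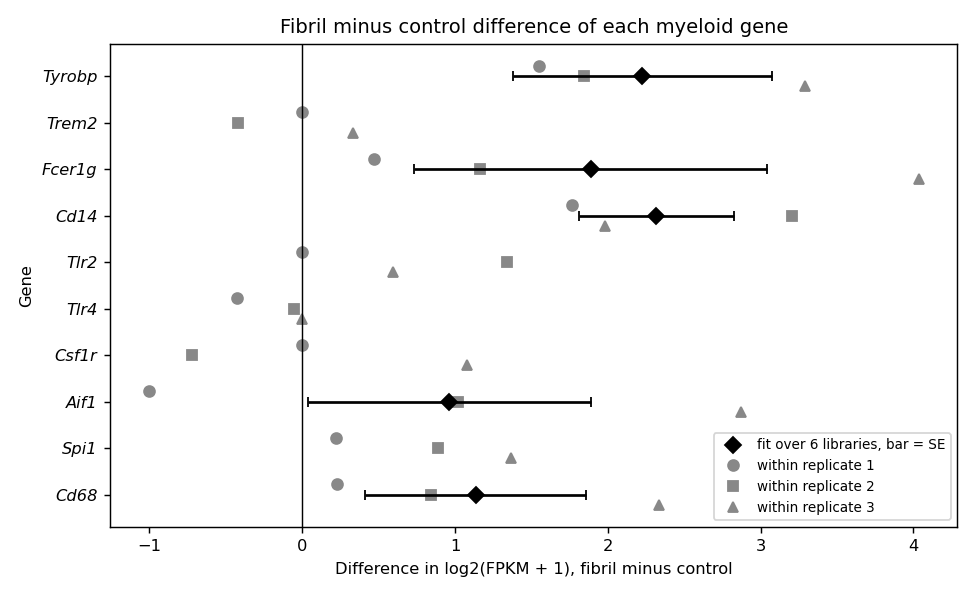
Differences in log2(FPKM + 1), fibril minus control, of the 10 genes: grey markers are differences within each replicate number, and black diamonds with SE bars are the fit over 6 libraries for the 5 tested genes. Differences within replicate 3 are the widest for 6 of the 10 genes, and a circle at 0 for Trem2, Tlr2 and Csf1r is a gene listed at 0 in both replicate 1 libraries.

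Low FPKM steps allowed the values of some genes to be read in fragments. When the lowest value above 0 of a gene was taken as 1 fragment and the worth of a fragment in each library was applied, Spi1 came to 1, 12 and 1 fragments in controls and 1, 26.1 and 12 with fibrils. Cd14 came to 0, 3 and 1 in controls and 4, 94.3 and 19.1 with fibrils. Tlr2 came to 0, 3.01 and 1 against 0, 16.6 and 3.01, and Trem2 to 0, 6 and 0 against 0, 2 and 1. Tlr4 came to 1, 2.47 and 0 against 0, 1.49 and 0, up to 0.486 from whole fragments, so its counts are uncertain. In fibril replicate 1, 1 fragment of Tlr4 would have been 0.588 FPKM, so the 0 there does not separate it from the 0.342 FPKM of control replicate 1. On this reading the Spi1 values of replicate 1 were 1 fragment each, and the Trem2 difference in replicate 2 was 6 against 2 fragments. In the control and fibril libraries of replicate 1, Fcer1g came to 1 and 1.02 fragments and Aif1 to 1 and 0. Cd68 came to 4.24 and 2.96 there, fewer with fibrils although its FPKM was higher. Its values lay up to 0.321 from whole fragments, so the fragment counts of Cd68 are uncertain. Tyrobp in fibril replicate 1 was its lowest value above 0, so it may be 1 fragment. In the same library 1 fragment of Tlr2 would have been 0.757 FPKM, against the 0.646 FPKM measured in fibril replicate 3, so a level like that one would come to about 1 fragment there, and a 0 does not separate it from absence.

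In order of level, the medians with fibrils were 15.4 FPKM for Fcer1g, 8.76 for Tyrobp, 7.95 for Aif1, 7.56 for Cd68, 3.23 for Cd14, 1.73 for Spi1, 0.718 for Csf1r, 0.646 for Tlr2, 0.262 for Trem2 and 0 for Tlr4. Neighbours in this order overlapped over the 3 fibril libraries. The control medians put Cd68 first at 6.31 FPKM, followed by Fcer1g at 1.04 and Aif1 at 1.01. The summed level of the 10 genes was 9, 36.2 and 0.78 FPKM over the controls and 14.2, 95.5 and 44.7 FPKM over the fibril libraries. Control replicate 2 thus held more of these transcripts than fibril replicate 1, and control replicate 3 nearly none.

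Other microglia markers had differences in both directions. Of 21 listed, 6 were tested, 3 positive and 3 negative, with a median difference of 0.06 against -0.04 for all genes; 0 passed (limma, 0 at an unadjusted p under 0.05, and 0 with the block). The summed level of the 21 ran from 17.9 to 50.5 FPKM over the controls and from 19.3 to 32.1 FPKM over the fibril libraries. Sall1 made up most of it in both replicate 1 libraries and in control replicate 3. Without it (left out after its values were seen) the sums were 3.49, 39.0 and 3.02 FPKM over the controls and 5.69, 23 and 18.2 FPKM over the fibril libraries. Laptm5, a lysosomal protein of haematopoietic cells and microglia, had 0, 2.55 and 0.0834 FPKM against 0.701, 2.93 and 2.01 FPKM. Sall1, a transcription factor of microglia that neural progenitors also use, had 16.3, 11.5 and 14.9 FPKM against 13.6, 9.09 and 7.49 FPKM. Ctss, a lysosomal protease, had 0, 3.51 and 0.13 FPKM against 0, 3.74 and 1.25 FPKM.

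Genes of complement C1q, made in brain mainly by microglia, were lower with fibrils in replicate 2, as were Csf1r and Trem2. In replicate 3 all of these genes were higher with fibrils. C1qb stood at 0, 8.36 and 0.118 FPKM without fibrils and at 0, 2.07 and 3.67 FPKM with them. C1qa and C1qc, named after their values were seen, were also highest in control replicate 2 (10.3 and 7.44 FPKM). They had 0.613 and 0.117 FPKM in control replicate 3 and 3.23 and 2.24 FPKM in fibril replicate 3. Relative to Tyrobp in the same library, C1qb was at 1.87 in control replicate 2, 0.111 in fibril replicate 2 and 0.419 in fibril replicate 3, and Csf1r was at 0.409, 0.0385 and 0.135. Cd14 relative to Tyrobp ran the other way, at 0.058 in control replicate 2, 0.569 in fibril replicate 2 and 0.369 in fibril replicate 3. Only 1 control library had Tyrobp above 0, so these ratios have no replicate check in controls and were not tested. Cx3cr1, the fractalkine receptor of microglia, had 0.8 FPKM in control replicate 2 and was listed at 0 in the other 5 libraries, and Tmem119 was at most 0.391 FPKM in any library.

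**Figure D3:**
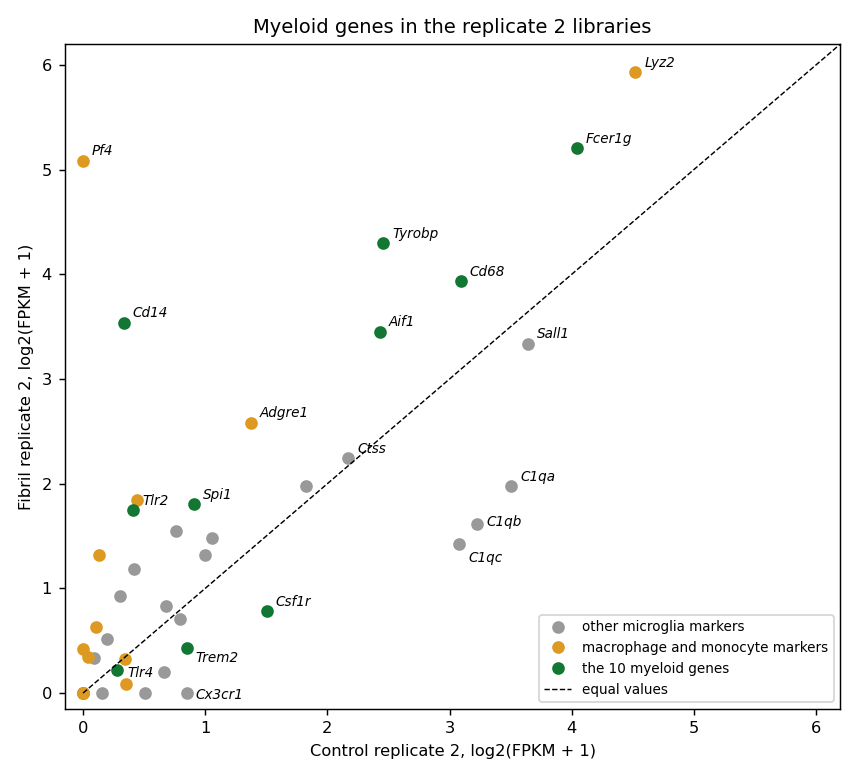
log2(FPKM + 1) in control replicate 2 (x axis) against fibril replicate 2 (y axis) for the 10 myeloid genes (green), 21 other microglia markers (grey) and 13 macrophage and monocyte markers (orange); the dashed line marks equal values. Pf4, Cd14, Tyrobp and Lyz2 lie above the line, and Csf1r, Trem2 and the C1q genes lie below it.

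Of 13 listed macrophage and monocyte markers, 3 were tested, all 3 positive (median 2.45), where 47.0% of all genes were positive (median -0.04). Of these, 0 passed (limma, 0 with the block). At an unadjusted p under 0.05 all 3 were higher, against 2.21% of all genes. Pf4 passed the filter through its fibril libraries alone, so its positive sign was set by the filter. The count of 3 therefore gives no support to a difference. Pf4, encoding a chemokine stored in platelets and also made by some macrophages, was listed at 0 in every control and had 4.55, 32.9 and 1.59 FPKM with fibrils. Lyz2, the lysozyme of phagocytes, had 2.54, 22.0 and 0.423 FPKM against 14.1, 60.0 and 19.5 FPKM. Adgre1, encoding the F4/80 antigen, had 0, 1.59 and 0.0351 FPKM against 2.41, 4.99 and 1.77 FPKM. The groups did not overlap, as in 4.24% of all tested genes that were higher in this way. Ccr2, the receptor that marks circulating monocytes, Cd163 and F13a1 were listed at 0 in all 6 libraries.

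The partners of Cd14 and the Toll-like receptors had differences in both directions. Of 22 listed genes, 19 had a row and 5 were tested, 1 positive and 4 negative (median -0.10), and 0 passed (limma, 0 at an unadjusted p under 0.05, 0 with the block). The 5 are signalling genes that other cells use as well. Traf6, a ubiquitin ligase of the pathway, stood at 5.10, 6.82 and 11.2 FPKM without fibrils and at 3.66, 8.34 and 1.54 FPKM with them. Irak4, the first kinase of the pathway, had 2.85, 1.71 and 1.34 FPKM against 3.92, 1.45 and 2.74 FPKM. Tab2 and Tollip had differences of -0.16 (SE 0.60) and -0.10 (SE 0.35).

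Genes around the Tyrobp and Fcer1g adaptors include those used by many cells and those of myeloid cells. Of 16 listed receptors, 14 had a row and 1 was tested, Sirpa, an inhibitory receptor, with a difference of -0.31 (SE 0.44; limma adjusted p = 0.966). The other 13 stayed below the filter. Among them, named after their values were seen, the Fc receptor gene Fcgr3a had 0, 0.791 and 0 FPKM against 0, 3.62 and 1.55 FPKM. Itgb2, the shared chain of leukocyte integrins, had 0, 0.535 and 0 FPKM against 0.625, 2.44 and 0.613 FPKM. Fcgr3a and Itgb2 had the largest differences of the 13, so they do not stand for the rest. Fcgr1a had 0, 0.856 and 0 FPKM against 0, 0.638 and 0.240 FPKM. Treml1, Treml2 and Clec5a were listed at 0 in all 6 libraries. Of 20 genes that carry the signal onward, 5 were tested, 2 positive and 3 negative (median -0.45), and 0 passed (limma, 0 at an unadjusted p under 0.05, 0 with the block). Fyn, a kinase that oligodendrocytes use abundantly, had 414, 149 and 222 FPKM against 555, 362 and 565 FPKM. Lyn, Nfatc1 and Ptpn11 had differences of -0.63 (SE 0.41), -0.45 (SE 0.44) and 0.32 (SE 0.38). Syk, the kinase that the activation motif recruits, named after its values were seen, was below 1 FPKM in all 6 libraries.

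Ligands and factors around Csf1r and PU.1 were mixed. Of 13 listed genes 6 were tested, 3 positive and 3 negative (median 0.14), and 0 passed (limma, 0 at an unadjusted p under 0.05, 0 with the block). Csf1, the main ligand of Csf1r, stood at 2.78, 2.10 and 3.52 FPKM without fibrils and at 5.32, 4.11 and 2.42 FPKM with them. Il34, its other ligand, named after its values were seen, was at most 0.109 FPKM. Csf2ra, a receptor chain for GM-CSF, had 0.862, 2.61 and 0.891 FPKM against 4.47, 5.39 and 1.92 FPKM. Cebpb and Cebpa, transcription factors of myeloid cells among others, had differences of 0.73 (SE 0.46) and -0.35 (SE 0.38).

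Genes of phagocytosis and lipid handling, many of which glia in general express, were also compared. Of 15 listed, 11 were tested, 9 positive and 2 negative (median 0.51), where 47.0% of all genes were positive (median -0.04). Of the 11, 0 passed (limma, 0 with the block). At an unadjusted p under 0.05, 1 was higher, against 2.21% of all genes. That gene was Lgals3, encoding the lectin galectin-3, at 1.31, 2.22 and 0 FPKM without fibrils and at 5.85, 18.9 and 7.80 FPKM with them (limma adjusted p = 0.564). Gpnmb, a glycoprotein of phagocytes, had 0, 9.08 and 0.66 FPKM against 1.30, 14.5 and 4.39 FPKM. Ctsz, a lysosomal protease, had 0, 5.80 and 0.456 FPKM against 0, 13.1 and 15.7 FPKM. Fabp5, a fatty acid carrier, had 144, 217 and 144 FPKM against 197, 186 and 437 FPKM.

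The 6 genes most like the mean profile of the 5 tested myeloid genes were named by Pearson correlation of log2(FPKM + 1) over the 6 libraries, as a description. They were Cyba (0.984), Ncf1 (0.974), Snrnp70 (0.967), Arfip2 (0.961), Spice1 (0.953) and Rac2 (0.952), and 37 of the 10766 tested genes reached 0.9. Cyba, Ncf1 and Rac2 encode parts of the NADPH oxidase of phagocytes. Ncf1 stood at 0, 3.03 and 0.0839 FPKM without fibrils and at 1.80, 17.5 and 6.15 FPKM with them. Snrnp70, a splicing component used by every cell, matched the order of libraries with much smaller relative steps, at 92.0, 140 and 79.7 FPKM against 98.5, 171 and 168 FPKM. The 6 points of each correlation include both replicate 1 libraries, which have the fewest fragments.

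Markers of the other cell types in the cultures were set beside these values. Precursor markers were plentiful in all libraries, with a summed level over 9 genes of 1638 to 2774 FPKM over the controls and 1226 to 1676 FPKM over the fibril libraries, against at most 95.5 FPKM for the 10 myeloid genes. The labelled cell type was thus present by its defining genes, Pdgfra, Cspg4 and Sox10 included, in each library. Cspg4 varied widely, at 4.59, 31.5 and 98.8 FPKM without fibrils and at 3.22, 23.6 and 25.3 FPKM with them. Its lowest values were in the replicate 1 libraries, where it lay below Cd68. Markers of differentiating oligodendrocytes summed to 1033 to 4819 FPKM over the controls and 4796 to 9113 FPKM over the fibril libraries, with Bcas1 at 4033 FPKM in control replicate 1. Of the 12 listed 9 were tested, all 9 positive (median 2.65), and in 7 every fibril library lay above every control, against 4.24% of all genes. By limma 0 passed, while with the block 3 were higher, against 0.111% of all genes. These were Mbp, Mag and Enpp6, all genes of maturing oligodendrocytes, with differences of 3.94, 3.55 and 3.66 (adjusted p = 0.0267, 0.0267 and 0.0435). Mbp, a myelin protein, stood at 68.3, 58.5 and 68.4 FPKM without fibrils and at 886, 992 and 1168 FPKM with them. Markers of this other cell type thus also differed between the groups, and their part in the myeloid values was not tested. Astrocyte markers summed to 208 to 232 FPKM and 122 to 271 FPKM, neuron markers to 274 to 602 FPKM and 113 to 399 FPKM. Of 10 astrocyte markers tested 8 were negative and 2 positive, where 47.0% of all genes were positive, and 0 passed (limma, 0 with the block). At an unadjusted p under 0.05 there were 5. Of these Gfap was higher, against 2.21% of all genes. Slc1a2, Slc1a3, Gja1 and Slc4a4 were lower, against 1.81%. The signs of Gfap and Slc4a4 were set by the filter, which each passed through 1 group alone. All 7 neuron markers tested were negative, against 47.0% of all genes that were positive, and 0 passed (limma, 0 with the block). At an unadjusted p under 0.05, 1 of the 7 (Dcx) was lower, against 1.81% of all genes. Of 10 neutrophil and lymphocyte markers 8 were listed at 0 in all libraries, and S100a8, a neutrophil and monocyte gene named after its values were seen, had 7.05 FPKM in fibril replicate 2 alone. Endothelial markers summed to at most 0.53 FPKM and fibroblast and mural markers to at most 0.877 FPKM. In bulk RNA, more microglia and more RNA of these genes per microglial cell cannot be told apart, and the part of cell makeup in the differences above was not tested.

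**Figure D4:**
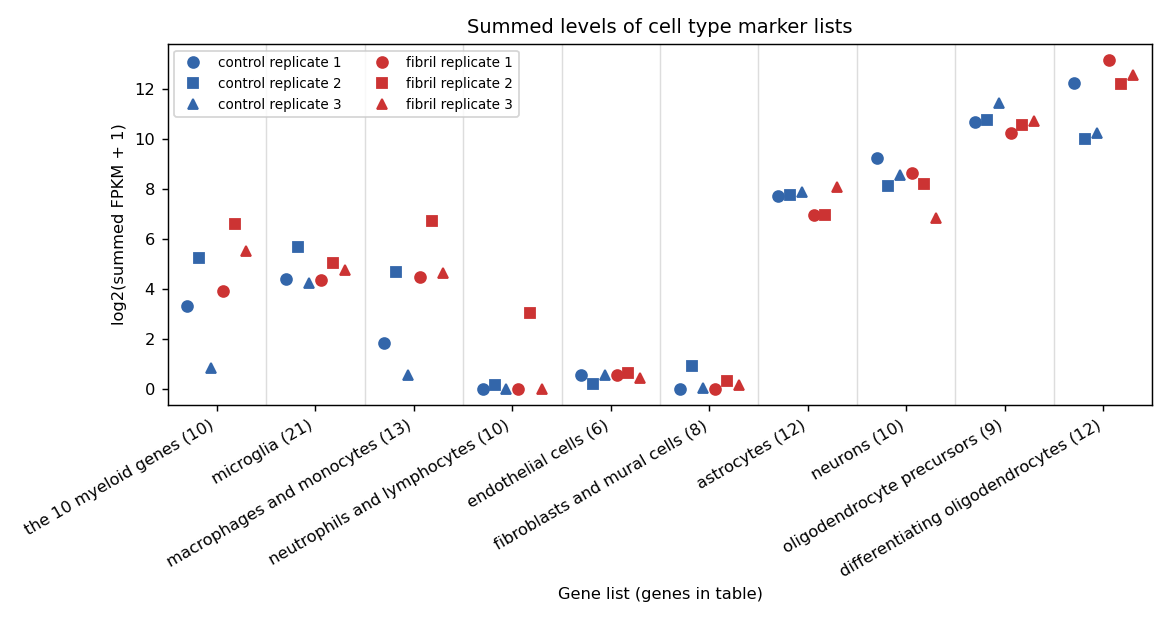
Summed FPKM, as log2(sum + 1), of the 10 myeloid genes and of 9 cell type marker lists in each library, with controls in blue, fibril libraries in red and a marker shape for each replicate number (the number of genes is in parentheses). The 10 genes range from 0.78 to 95.5 FPKM, while the 9 precursor markers stay between 1226 and 2774 FPKM.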

How the data were processed

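RNA sequencing was used on 3 control libraries and 3 from fibril-treated cells, as their titles group them. The authors deposited 1 table of FPKM values, per the file headers. Libraries were strand-specific, per the labels' protocols, and the submitters' processing notes name Trimmomatic and FastQC. No source used here gives the aligner, quantifier, genome build or fragment totals, so no count model was run.

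The 10766 genes that reached 1 FPKM in 3 or more libraries were analysed on the log2(FPKM + 1) scale, the same genes in every setting except other filters. Differences were tested over all of them with limma 3.58.1 in R 4.3.3 (two-sided, with a mean-variance trend, adjusted by Benjamini-Hochberg at a threshold of 0.05). The fits were tested on simulated data. The relative worth of 1 fragment came from ratios between libraries of values below 1 FPKM (tolerance 0.03 on the log2 scale).

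Replicate numbers were treated as pairs in an alternative fit, although the labels state no pairing. The reason was that deviations from group means of same-numbered libraries correlated at 0.747, 0.364 and 0.216, each over 0.1. Control replicate 3 with fibril replicate 2 correlated at 0.500, and control replicate 2 with fibril replicate 3 at 0.433. Both exceed the same-numbered values of replicates 2 and 3, so these correlations do not establish that those numbers are pairs. The members, gene lists and tests were chosen with earlier results of these data known. Beyond the 10 genes, the text names from each pathway list and from the microglia and macrophage lists the members past the threshold or, with none, up to 4 with the smallest p, plus the 6 most similar genes; others are marked as chosen after their values were seen, or serve as defining markers. Of the listed symbols 7 had no row. Of the listed microglia markers, 1 is not reported here.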

Additional observations from a re-analysis of the deposited data

How the results depend on the processing

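No block was used in the following: 0 genes were called higher or lower, and 0 of the 10 myeloid genes, under both other pseudocounts (0.1 and 5), both other filters, quantile normalization, scaling to equal totals without mitochondrial genes and replicates 2 and 3 only. Leaving out 1 library gave 0 to 3 genes higher (3 without fibril replicate 3), 0 lower and 0 of the 10. The replicate block gave 12 higher and 0 lower, changed no call among the 10, and gave 1 higher when combined with the mitochondrial scaling. With the block in replicates 2 and 3 only, 84 genes were higher and 48 lower, 4 of the 10 among the first; the cause was not tested.

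Over all 16 alternatives the difference stayed positive for Tyrobp (1.08 to 4.28), Fcer1g (1.04 to 3.08), Cd14 (0.94 to 4.61), Aif1 (0.34 to 2.06), Cd68 (0.27 to 1.66), Tlr2 and Spi1, and negative for Tlr4. The sign changed in 3 alternatives each for Trem2 and Csf1r. The adjusted p ran from 0.000332 to 1.00 for Cd14 and from 0.165 to 1.00 for Cd68. Scaling without mitochondrial genes moved the median of all tested genes from -0.04 to -0.30 and the share that were positive from 47.0% to 27.7%. Relative to that median the differences were 2.36 for Tyrobp, 2.04 for Fcer1g, 2.50 for Cd14, 1.15 for Aif1 and 1.26 for Cd68. Depth limits replicate 1 most: 1 fragment of Cd14 was worth 0.349 FPKM in control replicate 1 and 0.599 FPKM in fibril replicate 1, if its lowest value was 1 fragment.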

Other observations

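Other parts of the phagocyte NADPH oxidase, the enzyme that makes superoxide in neutrophils and macrophages, were looked up after 3 of its genes appeared among those most like the myeloid profile. Cybb, its catalytic subunit, stood at 0, 0.357 and 0 FPKM without fibrils and at 0.228, 2.58 and 0.701 FPKM with them. Ncf4, a regulatory subunit, had 0, 0.0998 and 0 FPKM against 0, 2.60 and 0.978 FPKM. Rac2, a small GTPase of blood cells that switches the enzyme on, had 0, 2.99 and 0.0906 FPKM against 3.04, 20.5 and 5.65 FPKM. Its groups did not overlap, with the fibril libraries higher, as in 4.24% of all tested genes. Cyba, the membrane partner of Cybb, had 0.829, 3.49 and 0.179 FPKM against 2.89, 11.1 and 5.56 FPKM. These 4 genes and Ncf1 had their highest value in fibril replicate 2. Of the 3 tested (Cyba, Ncf1 and Rac2), 0 passed without a block (limma adjusted p = 0.96 each) or with it (adjusted p = 0.255, 0.138 and 0.0686). Being chosen for their likeness to the myeloid genes, they are no separate evidence of a difference.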
